A study of Mus musculus with 6 samples.

Results

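Complex I (NADH:ubiquinone oxidoreductase) was followed through 44 nuclear genes in hearts of mouse embryos. The 44 were all rows, of 45792 in the count table, whose gene symbol begins with Nduf, apart from Ndufa4l2 and symbols with the suffix -ps. They comprise 37 genes named as subunits (Ndufa, Ndufab, Ndufb, Ndufc, Ndufs and Ndufv) and 7 assembly factors (Ndufaf1 to Ndufaf7), proteins that help to build the complex without staying in it. The rule used names and no measured value. It therefore counts Ndufa4, which is now assigned to complex IV, among the subunits, and leaves out assembly factors that carry other names.

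RNA was sequenced from whole hearts at embryonic day 13.5. There were 3 control hearts, labelled wild-type, and 3 mutant hearts, labelled Tie2Cre INO80 flox/flox, and every label gives the strain as C57BL/6. Ino80 is the ATPase of a chromatin remodeling complex. In the mutants both alleles are floxed, and the Tie2Cre transgene drives the recombinase in endothelial cells, the endocardium included, and in their descendants, so cardiomyocytes were not the cells targeted. The study's methods accept as controls littermates of every genotype except Tie2Cre;Ino80 fl/fl and describe mixed backgrounds. Embryos of either sex were used without being typed for it, so the sex behind each library is unknown. The counts of Ino80 did not separate the groups. Ino80 stood at 30.2, 31.6 and 32.8 CPM (counts scaled to the size and, by TMM, to the composition of each library) in control replicates 1 to 3 and at 36.5, 33.7 and 31.8 CPM in mutant replicates 1 to 3, a log2 fold change of 0.11 ± 0.08 (SE; edgeR's quasi-likelihood test, adjusted p = 0.473). These counts cover the whole gene in all cells of the heart, while the floxed allele loses only part of the gene and only where the recombinase acts. The study reports that quantitative PCR detected no Ino80 mRNA in endothelial cells sorted from mutant hearts. The counts used here do not check the deletion, so control and mutant mean the labels throughout. Every fold change is mutant over control.

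The 6 libraries held between 28948836 and 89675692 counts, the largest being mutant replicate 1. All 44 members passed the filter on low counts, and the smallest count of any member in any heart was 328, for Ndufb2. Counting error was thus small beside the spread between hearts fitted over all genes, a coefficient of variation of 0.153. This need not hold within a group whose hearts were nearly equal. The p-values weigh the difference between the groups against a spread between hearts that is estimated with the help of all genes. The 14 cardiomyocyte markers were present in all hearts, at a summed 30980 to 38020 CPM in the controls and 31170 to 33600 CPM in the mutants, and 8 endothelial markers summed to 912 to 1191 and 1068 to 1115 CPM. In bulk tissue, fewer cells of a type cannot be told apart from less RNA per cell.

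Complex I takes electrons from NADH in the mitochondrial matrix, passes them through iron-sulfur clusters to ubiquinone, and pumps protons across the inner membrane. The matrix arm holds the N module, where NADH is oxidized, and the Q module, where ubiquinone is reduced, and the membrane arm holds the pumping subunits. The core subunits of the matrix arm are encoded in the nucleus and those of the membrane arm in mitochondrial DNA, and a large set of accessory subunits surrounds both. Cardiac muscle is rich in mitochondria, and its dependence on oxidative metabolism grows as the heart matures.

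The subunit transcripts were abundant, and those of the assembly factors were scarce. Per kb of the principal transcript, subunits had a median of 135 CPM and assembly factors a median of 16.7 CPM, as means over the 6 hearts. The ranges hardly met, since 36 of the 37 subunits lay above the highest assembly factor, Ndufaf2, at 21.3 CPM per kb. Ndufa4 headed the list with 488 CPM per kb. Among the accessory subunits of complex I proper, the highest level was that of Ndufb9, which binds the acyl carrier protein in the distal membrane arm, with 276 CPM per kb. Among the other abundant accessory subunits were Ndufc2 with 206, Ndufs6 with 201, Ndufa11 with 194 and Ndufb10 with 186 CPM per kb. At the other end were Ndufs4, an accessory subunit of the N module, with 64.2 CPM per kb, and Ndufab1, the mitochondrial acyl carrier protein, with 57.7 CPM per kb. Before division by length, Ndufab1 had a mean of 201 CPM, so its low place rests on a long annotated transcript. That transcript has 3479 bases, against a median of 908 for the subunits. Ndufaf4, at 3632 bases, had a mean of 50.5 CPM. Among the subunits, only Ndufb2 of the distal membrane arm lay below the assembly factors, at 2.72 CPM per kb and with no more than 14.8 CPM in any heart. Its annotated principal transcript is long, at 4371 bases, and its exons share bases with Braf and with 2 further annotated genes. The handling of reads that fall on several genes was not given in the sources used here, so the level of Ndufb2 is uncertain.

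The promoters of these genes were read because their transcripts moved together from heart to heart. Whether any motif has a part in this was not tested. RefSeq start sites (GRCm38.p6) were at hand for 39 of the 44 genes, each as a window from 250 bases before the start to 50 after it, and 4 motifs of factors known to act on mitochondrial genes were searched on both strands. The NRF1 motif (GCGCA, any base, GCGC) was found in 9 of the 39 members, or 23.1%, against 5.19% of all 27025 genes with such a window and 7.17% of the 17492 that code for protein. The YY1 motif (AAGATGGCG) was found in 5 members, or 12.8%, against 1.64% of all genes and 2.14% of coding genes. All 5 are subunits, as are 33 of the 39 members with a window. The ETS motif bound by GABPA (CCGGAAG) was found in 12.8% of members, 9.93% of all genes and 12.9% of coding genes, and the ERR motif (TCAAGGTCA) in 0 members and 0.466% of all genes. A match is a string of letters and not a measured binding site, and none of the motifs searched contains another. The stretches below lie upstream of the start and outside the annotated gene, written 5′ to 3′ on the strand of the gene, with NRF1 motifs in capitals. Those of Ndufaf4, Ndufb4, Ndufs5 and Ndufa11 are shown because they hold an NRF1 match, and those of Ndufb10 and Ndufa3 because these subunits had the lowest and the highest log2 fold change of the 37, and neither window held any of the 4 motifs.
Ndufaf4 (chr4:24897963-24898082, plus strand): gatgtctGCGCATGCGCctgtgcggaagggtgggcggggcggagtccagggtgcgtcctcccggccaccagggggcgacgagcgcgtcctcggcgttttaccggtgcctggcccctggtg
Ndufb4 (chr16:37654454-37654573, minus strand): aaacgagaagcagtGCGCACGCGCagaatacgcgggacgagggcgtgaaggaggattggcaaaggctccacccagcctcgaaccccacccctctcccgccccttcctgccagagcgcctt
Ndufs5 (chr4:123718203-123718322, minus strand): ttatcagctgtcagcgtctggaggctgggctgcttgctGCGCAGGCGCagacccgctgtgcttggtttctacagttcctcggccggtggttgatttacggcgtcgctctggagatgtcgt
Ndufa11 (chr17:56717642-56717761, plus strand): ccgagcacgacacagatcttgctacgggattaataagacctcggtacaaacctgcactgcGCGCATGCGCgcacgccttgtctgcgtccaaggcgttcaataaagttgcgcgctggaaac
Ndufb10 (chr17:24724479-24724598, minus strand): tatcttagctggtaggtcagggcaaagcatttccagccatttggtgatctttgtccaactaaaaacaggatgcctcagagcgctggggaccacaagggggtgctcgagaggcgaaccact
Ndufa3 (chr7:3617253-3617372, plus strand): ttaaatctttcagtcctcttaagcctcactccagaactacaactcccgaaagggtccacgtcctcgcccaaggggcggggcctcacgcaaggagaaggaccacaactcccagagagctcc
For Ndufb4, whose log2 fold change was among the lowest, 3 NRF1 matches were found, of which the stretch shown holds the farthest from the start. The 9 genes with the match also include Ndufs6, Ndufa8 and the assembly factor Ndufaf5 among the genes described below.

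The nuclear genes of complex I had somewhat lower levels in the mutant hearts, almost without exception. Of the 44 members, 42 had a log2 fold change below 0, as did 50.3% of the 17125 genes tested, and the median was -0.24 against 0.00 over all tested genes. Summed over the 37 subunits, the control hearts had 4916, 6432 and 5721 CPM in replicates 1 to 3 and the mutant hearts 4474, 4951 and 5061 CPM. Control replicates 2 and 3 thus lay above every mutant heart, whereas control replicate 1 lay within the mutant range. No member passed an adjusted p of 0.05 by edgeR, and neither did any other tested gene, so the background was 0%. At an unadjusted p under 0.05, 15 members (34.1%) were lower and 0 higher, where 9.98% of all tested genes were lower and 9.48% higher. Every mutant heart lay below every control heart for 16 members (36.4%), against 12.8% of all tested genes, and no member showed the reverse, which 14.3% of all genes did. By DESeq2, 2 members passed the adjusted threshold, Ndufb10 and Ndufaf4, both lower, where 3.22% of genes were called lower.

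**Figure D1:**
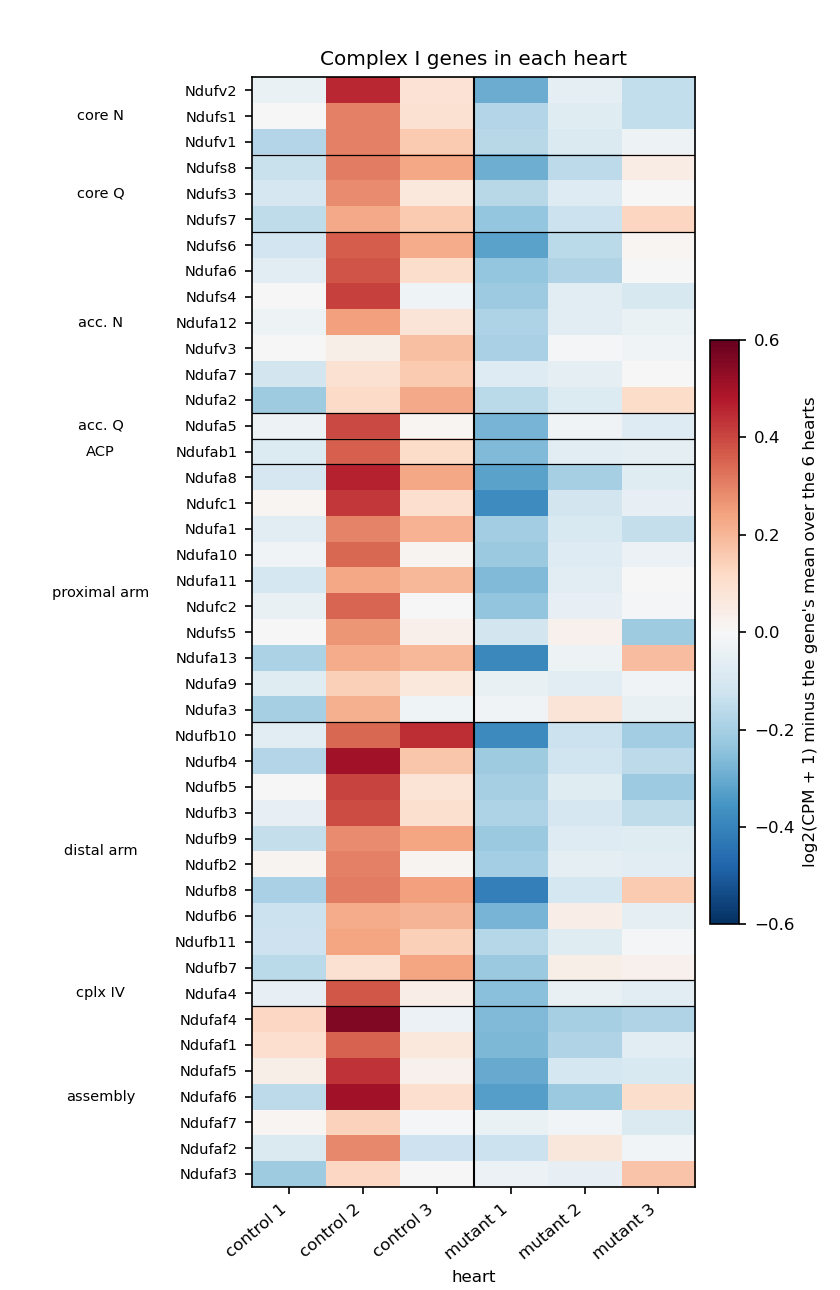
Each row is a member (1 of the 44 is not drawn), ordered by its place in complex I, and each column a heart; color gives log2(CPM + 1) minus the gene's mean over the 6 hearts (acc., accessory; ACP, acyl carrier protein; cplx IV, assigned to complex IV). Control replicate 2 holds the highest value for 38 of the 44 members and mutant replicate 1 the lowest for 35.

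The 7 core subunits encoded in the nucleus all had log2 fold changes below 0, with a median of -0.20. The 3 of the N module had a median of -0.27. Ndufs1, the largest iron-sulfur subunit of the N module, was counted at 357, 440 and 381 CPM in the controls and at 316, 339 and 323 CPM in the mutants. The groups did not overlap, and the log2 fold change was -0.27 ± 0.10 (SE; edgeR, adjusted p = 0.190). Ndufv2, which carries another iron-sulfur cluster of that module, was at 232, 327 and 253 CPM against 194, 230 and 215 CPM. Here too every mutant heart lay below every control heart by a narrow margin, with a log2 fold change of -0.35 ± 0.13 (SE; edgeR, adjusted p = 0.214). Ndufv1, which binds NADH and the flavin cofactor, had 270, 376 and 340 CPM in the controls and 272, 287 and 298 CPM in the mutants. Its lowest heart was control replicate 1, so the groups overlapped, and its log2 fold change was -0.20 ± 0.12 (SE; edgeR, adjusted p = 0.380).

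In the Q module, the groups overlapped for Ndufs7, Ndufs3 and Ndufs8. Ndufs7, which carries the iron-sulfur cluster next to the ubiquinone site, was at 94.5, 123 and 117 CPM in the controls and 89.2, 96.1 and 115 CPM in the mutants. Control replicate 1 fell among the mutants, and the log2 fold change was -0.16. Ndufs3 (-0.17) and the iron-sulfur protein Ndufs8 (-0.28) had the same pattern of a low control replicate 1, and none of these 3 reached an unadjusted p under 0.05.

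Among the accessory subunits, the lowest log2 fold changes were found in the membrane arm. Of 10 subunits of the distal membrane arm, all 10 were below 0 with a median of -0.25, and 4 of them passed an unadjusted p of 0.05. Of 10 at the proximal membrane arm and its junction with the matrix arm, 9 were below 0 with a median of -0.22, and 3 passed. The 7 accessory subunits of the N module were all below 0, with a median of -0.20, and 3 passed. All that passed were lower, and 9.98% of all tested genes were lower at that p. These medians lie closer together than the median standard error of a single subunit, which was 0.12, and no order is read from them.

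Ndufb10 (chr17:24722060-24724478, minus strand, GRCm38), a cysteine-rich subunit of the distal arm, had the lowest value of all 44. It was counted at 127, 169 and 181 CPM in the controls and at 102, 121 and 115 CPM in the mutants. Every mutant heart was below every control heart, and control replicate 1 came closest to them. The log2 fold change was -0.50 ± 0.13 (SE; edgeR, adjusted p = 0.126), and DESeq2 gave -0.50 with an adjusted p of 0.0134. Ndufb5 of the same arm was at 122, 161 and 129 CPM against 106, 115 and 104 CPM, also without overlap (-0.34 ± 0.11 SE, edgeR, adjusted p = 0.170), although 12.3% of its exon bases are shared with Mrpl47 on the opposite strand. Ndufb4 was at 80.3, 129 and 102 CPM in the controls and 78.0, 83.5 and 81.2 CPM in the mutants. Its mutant hearts were almost equal, and control replicate 1 was among them (-0.36 ± 0.15 SE, edgeR, adjusted p = 0.246).

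In the proximal arm, Ndufa8, a cysteine-rich subunit on the intermembrane face, was at 114, 170 and 144 CPM in the controls and 97.98, 107 and 117 CPM in the mutants. Control replicate 1 was below mutant replicate 3, and the log2 fold change was -0.42 ± 0.14 (SE; edgeR, adjusted p = 0.174). Ndufc1, a small membrane protein, was at 114, 152 and 121 CPM against 86.5, 105 and 109 CPM. It did not overlap between the groups and had a log2 fold change of -0.37 ± 0.13 (SE; edgeR, adjusted p = 0.187). In the N module, Ndufs6, a zinc-binding subunit, was at 104, 145 and 131 CPM against 89.8, 101 and 113 CPM, with control replicate 1 among the mutants (-0.32 ± 0.13 SE, edgeR, adjusted p = 0.239).

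The other 19 accessory subunits had log2 fold changes between -0.31 and -0.11. Of these 19, 4 were lower at an unadjusted p under 0.05, against 9.98% of all tested genes. In 7, every mutant heart lay below every control heart, against 12.8% of all tested genes. Ndufb9, the most abundant of them per kb, was at 174, 234 and 227 CPM in the controls and 165, 182 and 183 CPM in the mutants, with control replicate 1 among the mutants (-0.26 ± 0.12 SE, edgeR, adjusted p = 0.270). Ndufs4, which is needed for a stable N module, was at 108, 144 and 106 CPM against 92.5, 103 and 101 CPM, and there the groups did not overlap (-0.27 ± 0.12 SE, edgeR, adjusted p = 0.270). Ndufab1, which also serves mitochondrial fatty acid synthesis, was at 188, 255 and 215 CPM against 165, 190 and 192 CPM, and control replicate 1 was again among the mutants (-0.27 ± 0.12 SE, edgeR, adjusted p = 0.269). In all, 18 of the 44 members share annotated exon bases with another gene, among them Ndufb6, which shares 257 bases with Smim27, and Ndufa13, which shares 375 bases with Tssk6. Both of these partners had far fewer reads, with 261 reads for Smim27 and 12856 for Ndufb6 over the 6 hearts, and 209 for Tssk6 and 37994 for Ndufa13. As the handling of reads on shared bases was not given, these counts do not show whether Ndufb6 and Ndufa13 lost reads there.

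A few subunits showed little or no difference. Ndufa3 (chr7:3617373-3620327, plus strand), a small membrane subunit of the proximal arm, was at 57.6, 76.8 and 64.97 CPM in the controls and 65.3, 69.9 and 64.1 CPM in the mutants. The group means were both 66.4 CPM, and the log2 fold change was 0.00 with a 95% interval from -0.24 to 0.25. Ndufa9, at the junction of the arms, was at 130, 152 and 144 CPM against 133, 131 and 135 CPM, and only control replicates 2 and 3 stood above the mutants (-0.09, 95% interval -0.26 to 0.08). Ndufa2 (-0.09) and Ndufa7 (-0.10), accessory subunits of the N module, had control replicate 1 as their lowest heart, as did Ndufa3 and Ndufa9. The interval of every one of the 37 subunits held the subunit median of -0.24, Ndufa3 included at its lower edge. These intervals carry the variation between hearts that the subunits share, so they do not compare one subunit with the others. Relative to the mean log2(CPM + 1) of the other subunits of the same heart, Ndufa3 was at -0.98, -0.95 and -1.03 in the controls and -0.66, -0.71 and -0.87 in the mutants, without overlap. Ndufb10 was at 0.18, 0.21 and 0.48 against -0.004, 0.10 and -0.02 on this scale, also without overlap. In all, 2 of the 37 subunits (Ndufb10 and Ndufa8) were lower in every mutant heart and 2 (Ndufa3 and Ndufs3) higher when set against the others. No test was made of this, since Ndufa3 and Ndufb10 were singled out by their fold changes. The share of all genes without overlap on such a scale was not computed, so these counts are not read as a departure from the other subunits. The standard errors ran from 0.07 to 0.17, and the fold changes themselves had an SD of 0.10 over the 37 genes.

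Ndufa4, the subunit now placed in complex IV, had a log2 fold change close to the subunit median. It was at 285, 381 and 303 CPM in the controls and 247, 286 and 281 CPM in the mutants, with control replicate 1 inside the mutant range and a log2 fold change of -0.25 ± 0.12 (SE; edgeR, adjusted p = 0.297). Without Ndufa4, the median of the remaining 36 subunits was -0.24.

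**Figure D2:**
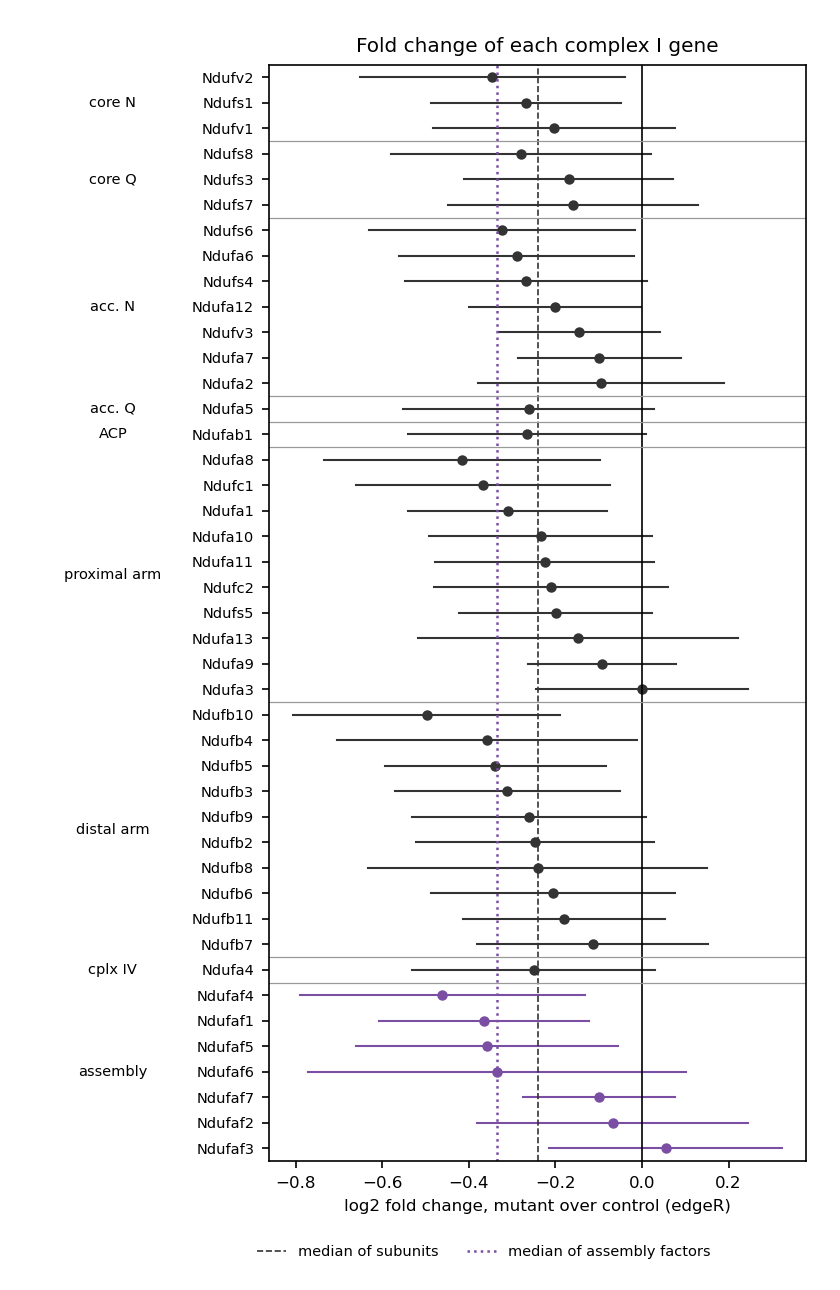
Points give the log2 fold change of each member (mutant over control, edgeR; 1 of the 44 is not drawn) with its 95% interval, subunits in grey and assembly factors in purple, and the lines mark the medians of -0.24 and -0.33. The intervals of 15 of the 44 members lie below 0, and no interval lies above it.

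Of the 7 assembly factors, 4 had log2 fold changes of -0.33 or lower and 3 lay between -0.10 and 0.05. Ndufaf4 (chr4:24898083-24905001, plus strand), which binds the nascent Q module together with Ndufaf3, was at 54.1, 73.2 and 48.2 CPM in the controls and 41.0, 43.0 and 43.5 CPM in the mutants. The mutant hearts were tightly grouped and all below the controls (log2 fold change -0.46 ± 0.14 SE; edgeR, adjusted p = 0.159; DESeq2, adjusted p = 0.0436). Ndufaf3 itself was at 16.3, 20.9 and 19.1 CPM against 18.6, 18.4 and 21.6 CPM. Its highest heart was a mutant, and its log2 fold change was 0.05 ± 0.12 (SE; edgeR, adjusted p = 0.819). The partners were thus at opposite ends of the 7, while the difference between their fold changes was not tested.

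Ndufaf1, a member of the assembly complex that builds part of the membrane arm, was at 25.8, 31.0 and 25.2 CPM in the controls and 19.8, 21.1 and 22.9 CPM in the mutants. The groups did not overlap (log2 fold change -0.36 ± 0.11 SE; edgeR, adjusted p = 0.143). Ndufaf5, which hydroxylates an arginine of Ndufs7, was at 24.0, 31.9 and 23.8 CPM against 18.8, 21.7 and 21.8 CPM, again without overlap (-0.36 ± 0.13 SE, edgeR, adjusted p = 0.200). Ndufaf6, needed for early assembly steps around the Q module, was at 15.6, 25.3 and 18.8 CPM against 13.7, 14.8 and 18.9 CPM and overlapped, with a log2 fold change of -0.33 ± 0.19 (SE; edgeR, adjusted p = 0.356). Ndufaf7, a mitochondrial methyltransferase, was at 33.3, 36.5 and 32.9 CPM in the controls and 32.2, 32.7 and 31.1 CPM in the mutants. All mutant hearts were below all controls, but the nearest pair was almost equal (-0.10 ± 0.08 SE, edgeR, adjusted p = 0.491). Ndufaf2, a relative of the subunit Ndufa12 that is exchanged for it late in assembly, was at 13.5, 17.8 and 13.1 CPM against 13.1, 15.1 and 14.2 CPM (-0.07 ± 0.14 SE, edgeR, adjusted p = 0.809). Of the exon bases of Ndufaf2, 65.6% are shared with a noncoding RNA on the opposite strand. That RNA was not itself among the genes counted. Since the strand setting is not known, the count of Ndufaf2 is uncertain.

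**Figure D3:**
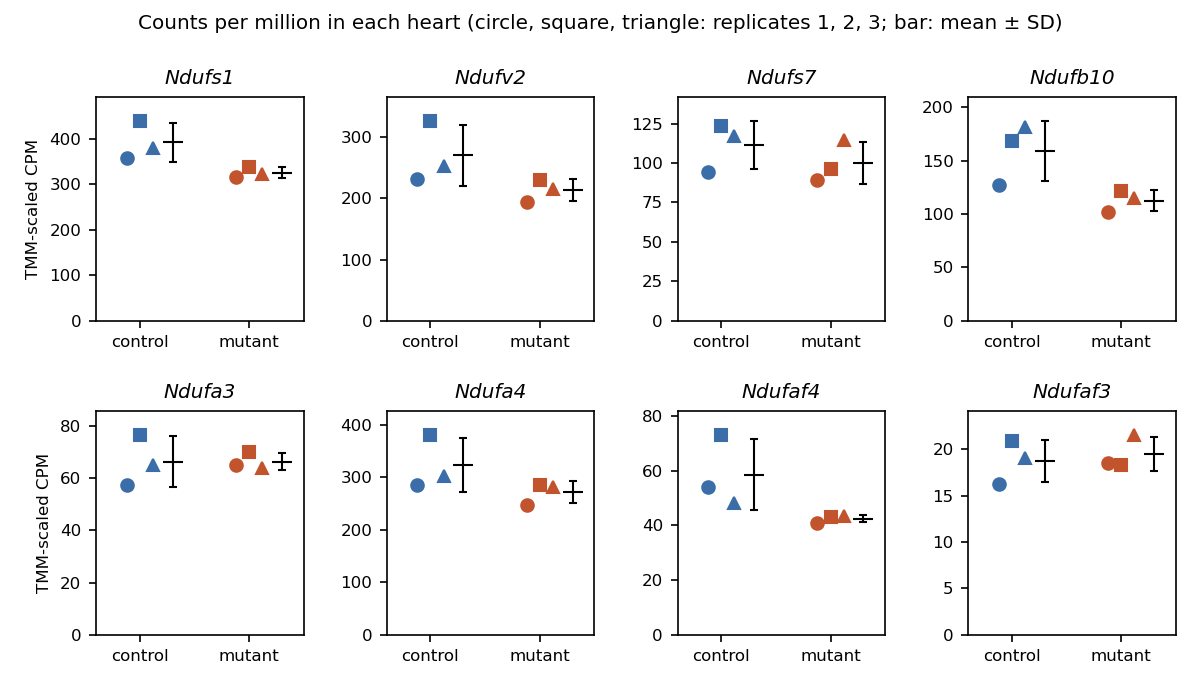
TMM-scaled CPM in each heart for 8 members, with circles, squares and triangles for replicates 1, 2 and 3 and black bars for the mean ± SD of 3 hearts. Ndufb10 and Ndufaf4 do not overlap between the groups, while Ndufa3 and Ndufaf3 have nearly equal means.

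Subunits and the 7 Ndufaf assembly factors had similar log2 fold changes, and the distance between these classes did not move with the genotype labels. The median log2 fold change was -0.24 for the 37 subunits and -0.33 for the 7 assembly factors, which is a difference of 0.09. The mean log2(CPM + 1) of the subunits was 6.83, 7.21 and 7.05 in the controls and 6.69, 6.84 and 6.87 in the mutants, a difference of -0.23 between the group means. That of the assembly factors was 4.61, 4.98 and 4.64 against 4.44, 4.54 and 4.62, a difference of -0.21. The subunit mean exceeded the assembly factor mean by 2.21, 2.22 and 2.404 in the controls and by 2.25, 2.30 and 2.26 in the mutants. All 3 mutant hearts lay inside the control range, so the difference between the groups was smaller than the spread between hearts. Without control replicate 2, the difference of the medians turned to -0.010. The 11 tested assembly factors with other names, described further on, had a median nearer to 0, at -0.09, and the subunit mean exceeded theirs by 1.80, 1.94 and 1.93 in the controls and by 1.68, 1.80 and 1.80 in the mutants. There the highest mutant heart only just reached the lowest control. In share of genes, 12 of 37 subunits (32.4%) and 3 of 7 assembly factors (42.9%) were lower at an unadjusted p under 0.05, against 9.98% of all tested genes. Without overlap, 12 (32.4%) and 4 (57.1%) were lower, against 12.8% of all tested genes.

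The members varied together from heart to heart within a group as well as between groups. Control replicate 2 was the highest of the 6 hearts for 32 of the 37 subunits and 6 of the 7 assembly factors, and 30 subunits had the order control replicate 2, 3 and 1 among the controls. Mutant replicate 1, the deepest library, was the lowest heart for 30 subunits, and the part of its depth in this was not tested. Control replicate 1 lay inside the mutant range for 20 subunits and above every mutant heart for 12. Over the 6 hearts, the median Pearson correlation of a subunit with the mean of the other subunits was 0.94, and it was lowest for Ndufa3, at 0.60. For the assembly factors it was 0.81, between 0.48 for Ndufaf3 and 0.94 for Ndufaf6. These values describe 6 hearts of 2 groups and share the scaling of each library.

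Single hearts weighed heavily on the counts. Without control replicate 1, 33 members were lower at an unadjusted p under 0.05 (11.5% of all genes), 40 did not overlap (20.1% of all genes), and 5 passed edgeR's adjusted threshold: Ndufb10, Ndufa8, Ndufb4, Ndufa1 and Ndufb9, with adjusted p-values from 0.0166 to 0.0491 and log2 fold changes from -0.64 to -0.38. Without control replicate 2, only 5 members were lower at that p (7.33% of all genes), and without mutant replicate 1 only 4 (6.75% of all genes), while 16 did not overlap in either case (16.8% and 16.5% of all genes). The medians stayed below 0 throughout, at -0.33 to -0.14 for the subunits and at -0.40 to -0.13 for the assembly factors.

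The globins also set control replicate 1 apart from the other controls. Hbb-y is an embryonic beta-type globin of primitive red cells, which are replaced at about this stage by definitive red cells with adult globins. Hbb-y made up 9.21%, 0.455% and 0.748% of the summed counts of Hbb-y, Hbb-bs and Hbb-bt in control replicates 1 to 3. In mutant replicates 1 to 3 it made up 24.0%, 30.9% and 20.2%. The Hbb-y share was thus higher in every mutant heart. Among the controls it was highest in replicate 1, the control in which complex I genes were low, and lowest in replicate 2, in which they were high. The mutants followed this order only in part. Their share was highest in replicate 2, whereas the mean of the complex I subunits was lowest in replicate 1. Mutant replicate 3 had the lowest share and the highest subunit mean of the mutants. Erythroid markers as a whole summed to 9298 to 39400 CPM in the controls and 6429 to 11450 CPM in the mutants, with 9 of the 10 listed found and none at 0. This share was looked at after the values were seen, and its part in the complex I result was not tested.

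Genes that work with complex I were compared with it through lists. The 7 ND subunits encoded in mitochondrial DNA, which form the core of the membrane arm, had a median log2 fold change of -0.07, and none reached an unadjusted p under 0.05. Their lowest was mt-Nd3 (-0.37 ± 0.19 SE, edgeR, adjusted p = 0.318) and their highest mt-Nd6 (0.06 ± 0.19 SE, edgeR, adjusted p = 0.881). Their mean log2(CPM + 1) was 11.19, 11.23 and 10.82 in the controls and 10.85, 11.18 and 10.83 in the mutants. The groups overlapped here, and the order of the hearts differed from that of the nuclear subunits, with control replicate 3 the lowest of all. The 11 assembly factors with other names that were found, of 14 listed, had a median of -0.09, and none reached an unadjusted p under 0.05. The lowest were Tmem126a (-0.22) and Ecsit (-0.22), a partner of Ndufaf1. Of the 11, only Foxred1 did not overlap between the groups, being lower in the mutants (-0.22 ± 0.11 SE, edgeR, adjusted p = 0.292). Over all tested genes, 12.8% were lower without overlap.

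The remaining respiratory complexes had log2 fold changes of about the same size as complex I. Of 46 tested genes of complexes II to V, 44 were below 0, with a median of -0.26. At an unadjusted p under 0.05, 18 were lower and 1 higher, where 9.98% of all tested genes were lower and 9.48% higher. The mean log2(CPM + 1) of the complex I subunits lay below that of complexes II to V by 0.89, 0.92 and 0.93 in the controls and by 0.91, 0.88 and 0.90 in the mutants. The distance between these lists hence moved far less over the 6 hearts than either list alone. Mitochondrial ribosomal proteins had a median of -0.10 with 58 of 75 below 0, and cytosolic ribosomal proteins one of 0.10 with 66 of 76 above 0. The subunit mean minus that of the cytosolic ribosomal proteins was -1.62, -1.36 and -1.47 in the controls and -1.84, -1.79 and -1.79 in the mutants, without overlap. Against the cardiomyocyte markers the subunit mean was at -3.68, -3.46 and -3.81 in the controls and -3.88, -3.79 and -3.78 in the mutants, and the groups overlapped. The 14 cardiomyocyte markers did not move as one, with 11 below 0 and 3 above. These 3, Myl7 (0.69 ± 0.20 SE; DESeq2, adjusted p = 0.00996), Myh6 (0.48 ± 0.16 SE; DESeq2, adjusted p = 0.0441) and Myl4 (0.30 ± 0.09 SE; DESeq2, adjusted p = 0.0219), were higher in every mutant heart, and by edgeR their adjusted p-values were 0.139 to 0.180. Of all tested genes, 14.3% had every mutant heart above every control heart. Tnni3, the cardiac troponin I of the mature heart, was the lowest of the 14 markers (-0.47 ± 0.18 SE, edgeR, adjusted p = 0.221). The 10 mesenchymal and epicardial markers summed to 2774 to 3949 CPM in the controls and 2596 to 3440 CPM in the mutants, with none at 0. Without overlap, 2 of the 10 were lower and 1 higher, where 12.8% of all tested genes were lower and 14.3% higher. These counts are near the background and are not read as a result. Dcn (-0.46; edgeR, adjusted p = 0.0906; DESeq2, adjusted p = 0.00279) and Postn (-0.43; edgeR, adjusted p = 0.0854; DESeq2, adjusted p = 0.000256), both matrix proteins, were lower, and Upk3b (0.57; edgeR, adjusted p = 0.0833; DESeq2, adjusted p = 0.00121), a mesothelial marker, was higher. The rest of this list overlapped between the groups. It comprised Col3a1 (-0.21), Col1a2 (-0.0031) and Col1a1 (0.08), which are also matrix genes, and Tbx18 (-0.10), Wt1 (0.0046), Tcf21 (0.23) and Pdgfra (0.29). Matrix genes and epicardial genes thus did not move as sets. The part of these markers in the complex I result was not tested.

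**Figure D4:**
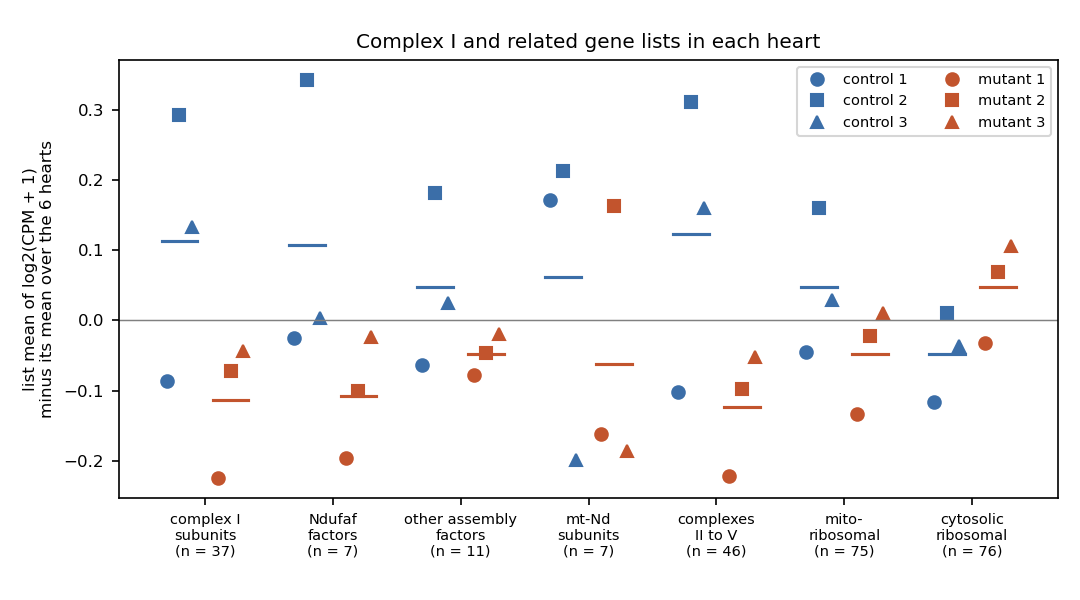
For each gene list the mean log2(CPM + 1) of each heart is plotted relative to the mean of the 6 hearts, with controls in blue, mutants in orange and bars at the group means. Control replicate 2 is highest and mutant replicate 1 lowest for the complex I subunits, the Ndufaf and other assembly factors, complexes II to V and the mitochondrial ribosomal proteins. The mt-Nd subunits have control replicate 2 highest but control replicate 3 lowest, and the cytosolic ribosomal proteins have mutant replicate 3 highest and control replicate 1 lowest.

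Of 14 regulators of mitochondrial genes, 7 were below 0 and 7 above, with a median of -0.04. Ppara, a nuclear receptor that activates fatty acid oxidation genes, was at 8.28, 21.6 and 14.7 CPM in the controls and 6.73, 5.71 and 6.50 CPM in the mutants. All mutant hearts were below the controls, of which control replicate 1 was the lowest (log2 fold change -1.23 ± 0.30 SE; edgeR, adjusted p = 0.109; DESeq2, adjusted p = 0.00144). Ppargc1a, a coactivator that raises mitochondrial gene expression, was at 120, 167 and 139 CPM against 121, 113 and 103 CPM (-0.33 ± 0.12 SE, edgeR, adjusted p = 0.198). Esrrb, an orphan nuclear receptor, was at 13.6, 13.4 and 13.1 CPM against 16.98, 19.8 and 17.2 CPM and was higher in every mutant heart (0.43 ± 0.10 SE; edgeR, adjusted p = 0.0935; DESeq2, adjusted p = 0.0152). Pprc1, a relative of Ppargc1a, was at 0.24 ± 0.10 (SE; edgeR, adjusted p = 0.245). Esrrb belongs to the ERR family, whose motif was among those searched, and the other members had log2 fold changes of -0.26 (Esrra) and 0.16 (Esrrg), with overlapping groups. For the remaining motifs, the log2 fold changes were 0.11 for Nrf1, -0.10 for Gabpa and 0.03 for Yy1. Of these 5 genes, none reached an unadjusted p under 0.05.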

How the data were processed

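Whole hearts of 3 control and 3 mutant embryos were sequenced. Paired reads were aligned by the authors with STAR 2.4.2a (GRCm38, GENCODE vM6), and the raw counts from summarizeOverlaps were deposited. A further table deposited by the authors pairs gene symbols with a mean signal and with fold changes and p-values from DESeq2, and of it the symbols were used here, and the mean signal only to check that its rows match the count table. The strand setting was not given in the sources used here.

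Low genes were removed by filterByExpr (count 10, total 15), and the rest were scaled by TMM and tested with the quasi-likelihood method of edgeR 4.0.16 in R 4.3.3, with Benjamini-Hochberg adjustment over all 17125 genes and a threshold of 0.05. DESeq2 1.42.0 was an alternative, as were RLE scaling, other filters, thinning, leaving out hearts, the replicate number as a block and leaving out Ndufa4. Principal transcript lengths and exons came from GENCODE vM21, in which 45229 gene identifiers matched, and promoters from RefSeq. Of 41 windows of members, 35 had the bases after their start in transcripts of the gene and 0 their reverse complement.

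Named members were core subunits, all Ndufaf genes, Ndufa4, the 6 other subunits with the lowest and 4 with the highest log2 fold change, the 5 highest and 3 lowest per kb, and those past an adjusted p of 0.05 by either tool. The values of 1 member are not reported here. Ndufa1, Foxred1 and the globin share were named after their values were seen. The members and lists were chosen with earlier results of these data known, and the transcript lengths were settled after the data were seen. Atp5sl stands in both the list of assembly factors and that of complexes II to V.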

Additional observations from a re-analysis of the deposited data

How the results depend on the processing

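The median log2 fold change of the subunits kept its sign under every alternative run, at -0.33 to -0.14 when leaving out each heart and at -0.25 to -0.23 otherwise. Of 372 values of named members under the alternatives, 355 kept their direction and side of the threshold. With DESeq2, 982 genes and 2 members (Ndufb10, Ndufaf4) passed the adjusted threshold, and with all genes of at least 1 count, 603 genes and 1 member (Ndufb10). Leaving out each heart in turn gave 0 to 751 genes and 0 to 5 members called, 4 to 33 members lower at an unadjusted p, 16 to 40 members without overlap, assembly factor medians of -0.40 to -0.13, and differences of the medians of -0.0104 to 0.137. The replicate numbers do not pair the hearts, as same-numbered hearts correlated at -0.08 to 0.02 and no heart correlated best with its own number. With the replicate block, 14 genes were called and 26 members were lower at an unadjusted p, as were 10.5% of all genes. Ndufa3, at 0.0005, turned to -0.0042 with RLE or DESeq2 and to -0.0033 after thinning. When leaving out each heart, it lay between -0.0924 and 0.118, Ndufa2 between -0.215 and 0.0011, Ndufaf2 between -0.147 and 0.0856, and Ndufaf3 between -0.0371 and 0.139. The causes were not tested. Thinning every heart to the smallest total left 0 genes called by edgeR and 14 members lower at an unadjusted p.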

Other observations

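Within the respiratory complexes II to V, the 3 lowest log2 fold changes belonged to isoforms of cytochrome c oxidase subunits. Cox8b and Cox7a1 are typical of heart and skeletal muscle, and Cox4i2 is not. Cox8b was at 28.8, 54.1 and 49.3 CPM in the controls and 21.5, 19.6 and 21.9 CPM in the mutants (log2 fold change -1.07 ± 0.21 SE; edgeR, adjusted p = 0.0833; DESeq2, adjusted p = 5.11e-05). Cox7a1 was at 35.1, 64.3 and 59.4 CPM against 30.6, 33.2 and 33.0 CPM (-0.71 ± 0.20 SE; edgeR, adjusted p = 0.135; DESeq2, adjusted p = 0.0107). Cox4i2 was at 4.28, 5.52 and 6.30 CPM against 2.83, 3.95 and 3.35 CPM (-0.67 ± 0.20 SE; edgeR, adjusted p = 0.153; DESeq2, adjusted p = 0.0595). In all 3, the groups did not overlap, and control replicate 1 was the control nearest to the mutants, as for the complex I subunits. Atp5j, a subunit of ATP synthase, was at -0.35 ± 0.12 (SE; edgeR, adjusted p = 0.169; DESeq2, adjusted p = 0.0496). At the other end of the list stood Cox6b2 (0.35 ± 0.14 SE, edgeR, adjusted p = 0.239) and Atp5g2 (0.00). No complex I member reached the size of the difference of these 3 genes. The lowest, Ndufb10, was at -0.50.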
